A study of Mus musculus with 8 samples.

Results

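The enzymes and carriers that supply, use and divert arginine were measured in macrophages grown from mouse bone marrow, WT or labelled *iNOS*-/-, with and without M1 activation. The genes were Nos2, Slc7a2, Ass1, Asl, Gch1, Arg1, Arg2, Odc1, Srm and Sat1, and every probe that the array table assigns to one of these symbols was taken. This gave 15 probes for 9 of the 10 genes, out of 25697 probes for 18138 gene symbols on the array, and Sat1 was not analysed here. Of the 15 probes, 14 were detected on at least 2 arrays and entered the test.

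Marrow cells of 8-week-old female mice, labelled C57bl/6J in both genotypes, spent 7 days with GM-CSF at 10 ng/ml, and M1 cells were then exposed for 6 h to LPS at 200 ng/ml with IFN-γ at 10 ng/ml. LPS comes from the outer membrane of bacteria and IFN-γ is a lymphocyte cytokine, and together they drive classical, or M1, activation. Each genotype, WT and *iNOS*-/-, was taken unstimulated and M1, with 2 Illumina bead arrays for each of the 4 groups. All 4 groups shared the growth in GM-CSF. The *iNOS*-/- mice carry a germline targeted allele of Nos2 (line B6.129P2-Nos2tm1Lau/J in the methods), so the gene was altered in every cell of the culture, and which exons that allele lacks was not given in the sources used here. The labels do not say whether the arrays of a group came from separate mice or cultures, so p-values measure only the spread between arrays, which may be technical.

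Inducible nitric oxide synthase, the product of Nos2, turns arginine into citrulline and nitric oxide and is the signature enzyme of M1 macrophages. Arginine reaches it through cationic amino acid carriers such as the product of Slc7a2, or is rebuilt from citrulline by Ass1 and Asl. The enzyme works only with tetrahydrobiopterin, whose synthesis begins with Gch1. Arginases compete for the same arginine and release ornithine, which Odc1 turns into putrescine, and Srm extends putrescine to the polyamine spermidine.

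Between 46% and 49.3% of all probes were detected per array (detection p-value under 0.05), and scale factors ran from 0.813 to 1.3. All 8 macrophage markers examined were detected on every array, and none of the 3 T cell and 2 B cell markers was. Between the M1 groups 7 of the 8 macrophage markers were called, against 48.2% of all tested probes. Cd68, Csf1r, Itgam and Fcgr1 were lower in *iNOS*-/-. Cd14, Mertk and Emr1 were higher, of which Emr1 changed sign with neqc and quantile normalization. Between the unstimulated groups 4 of the 8 were called, against 32.2% of all tested probes. Cd68, Mertk and Cd14 were lower in *iNOS*-/- there (log2 -1.55, -1.45 and -0.77), and Fcgr1 was higher (log2 0.54). The summed level of 9 dendritic cell markers ranged from 762.5 to 775.4 in WT unstimulated, 12030 to 12480 in WT M1, 10590 to 11560 in *iNOS*-/- unstimulated and 22520 to 22990 in *iNOS*-/- M1, with Flt3, a defining marker, undetected throughout. Most of that sum was the chemokine Ccl17, which read 530 and 554.5, 10970 and 11480, 10650 and 9629, and 18990 and 19650. Zbtb46, Ccr7, Ccl22, Dpp4 and Ccl17 were each called higher in WT M1 and in *iNOS*-/- unstimulated than in WT unstimulated. Between the M1 groups only Ccr7 and Ccl17 were called, both higher in *iNOS*-/-. Itgax and Clec9a were called in none of the comparisons between groups. In the order of groups used for the dendritic cell sum, the 7 granulocyte markers summed to between 1123 and 1142, 1393 and 1500, 1680 and 1737, and 3860 and 3984. Mpo was undetected. The largest part was S100a8, which read 919.9 and 932.8, 1064 and 1196, 1402 and 1336, and 2839 and 2945. S100a9, Ngp, Camp and Ltf were called higher in WT M1 and in *iNOS*-/- unstimulated than in WT unstimulated. Mmp8 was called lower in both of these groups (log2 -1.73 and -1.33), and S100a8 was called higher only in *iNOS*-/- unstimulated. S100a8, S100a9 and Ltf were called between the M1 groups, each higher in *iNOS*-/-, and Ngp, Camp and Mmp8 were not. Of 3 mast cell markers only Cpa3 was detected, at 20.2 and 26.8 in WT M1, 96.5 and 84.8 in *iNOS*-/- unstimulated and 113.6 and 121.4 in *iNOS*-/- M1, and not in WT unstimulated. These levels differed between the groups compared throughout the results below, and their part in them was not tested. A lower level in such cultures can come from fewer cells that express a gene or from less RNA per cell, and these cannot be told apart.

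The member probes are 50 bases long, and each sequence occurs on 1 row of the array table only. Some of them are shown, because the reading of Nos2 and of the genes with several probes depends on which stretch of the transcript was measured. Their starts are counted along the transcript to which the array's design assigns them. By their starts, if both are counted along the same transcript, the Asl probes, not shown, share 44 bases. They may then not measure separate stretches, whereas the starts of the others set them apart.
Nos2, start 3546: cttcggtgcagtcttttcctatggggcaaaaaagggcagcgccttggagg
Arg1, start 996: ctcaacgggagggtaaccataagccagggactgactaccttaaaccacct
Slc7a2, start 1277: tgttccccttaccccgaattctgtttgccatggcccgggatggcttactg
Slc7a2, start 2081: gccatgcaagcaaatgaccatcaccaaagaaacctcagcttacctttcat
Srm, start 286: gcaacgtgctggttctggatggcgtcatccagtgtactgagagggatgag
Srm, start 932: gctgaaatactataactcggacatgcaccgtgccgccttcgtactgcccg

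For Nos2, the targeted gene, the scaled intensity was 1.06 and 1 on the WT unstimulated arrays, 177.4 and 132.4 on the WT M1 arrays, 1.97 and 3.66 on the *iNOS*-/- unstimulated arrays, and 180.3 and 204.1 on the *iNOS*-/- M1 arrays (replicates 1 and 2). This quantity is the deposited probe intensity after each array was brought to a common scale, with values under 1 set to 1. The probe was detected on all 4 M1 arrays and on none of the 4 unstimulated arrays, and both M1 groups stood far above both unstimulated groups.

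M1 activation raised the Nos2 signal at least 27.2-fold in WT cells and at least 38.4-fold in *iNOS*-/- cells (adjusted p = 0.000125 and 0.000108). These bounds hold on this scale only, where the lowest intensity of any detected probe stood in for the unstimulated level. The rises were log2 3.11 and 3.33 with neqc and 3.26 and 3.58 with a floor of 16, which lie below the bounds and still passed the test. In *iNOS*-/- M1 cells the probe read 1.25-fold above WT M1, a log2 difference of 0.32 with a standard error of 0.32 (adjusted p = 0.445). The arrays labelled *iNOS*-/- therefore carried a signal for the targeted gene, at a probe near the far end of the transcript. Since the sources do not say whether this stretch is retained in the allele, the probe cannot check the labels, and a signal for the message is not a measure of enzyme. Between the unstimulated groups the fit passed the threshold (adjusted p = 0.0257), but with the probe undetected on all 4 arrays no fold was taken from it.

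**Figure D1:**
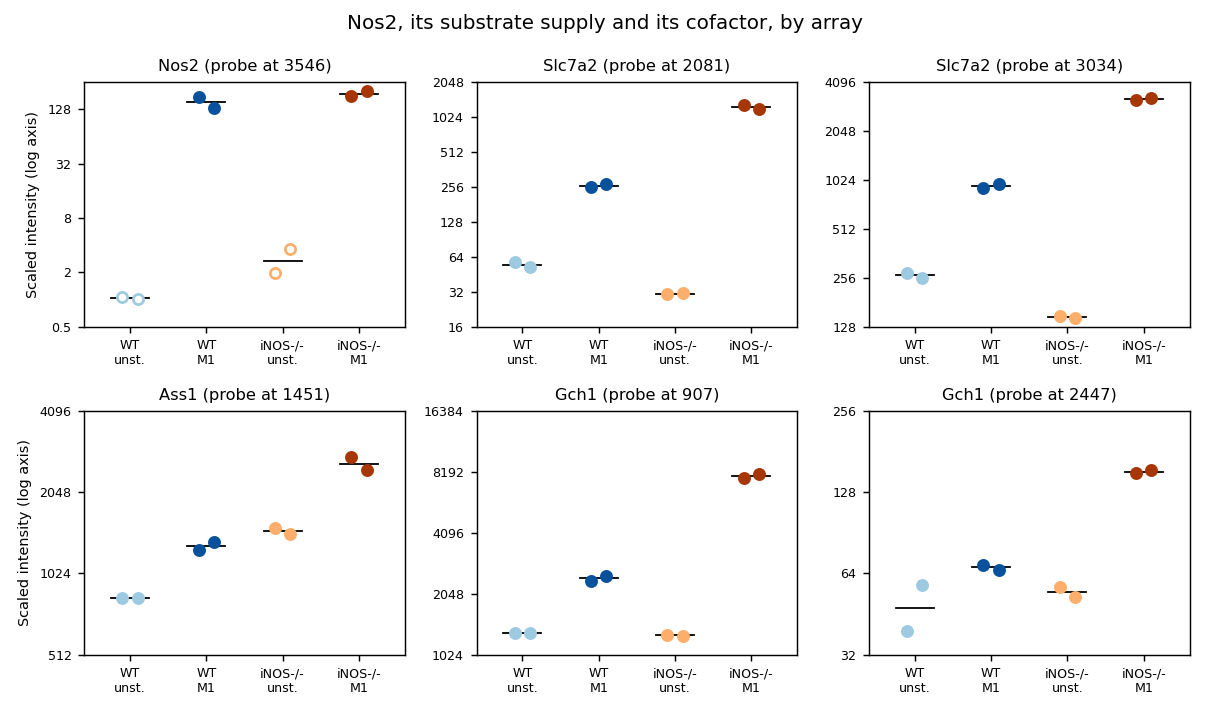
Scaled intensity (vertical log axis) on each of the 8 arrays for Nos2, the arginine carrier Slc7a2, Ass1 and the cofactor enzyme Gch1. Points are arrays, 2 per group, horizontal bars are geometric means, open points mark groups in which the probe was detected on neither array, and each panel has its own axis. Nos2 reached between 132.4 and 204.1 in the M1 groups of both genotypes, whereas Slc7a2 and Gch1 were highest in *iNOS*-/- M1.

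Substrate supply was carried by Slc7a2, which takes up arginine from outside the cell, and by Ass1 and Asl, which recycle citrulline. M1 activation raised Slc7a2 in both genotypes, and the rise was larger in *iNOS*-/- cells. Ass1 also rose in both genotypes, while no Asl probe passed the test in any comparison.

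For the Slc7a2 probe at 2081 the scaled intensity was 57.3 and 52.5 in WT unstimulated, 253.7 and 271.1 in WT M1, 30.4 and 31 in *iNOS*-/- unstimulated, and 1302 and 1207 in *iNOS*-/- M1. At the probe at 3034 the arrays read 274.5 and 255.7, 911.5 and 967.5, 149.5 and 143.5, and 3171 and 3300 in the same order. The groups did not overlap at either probe, with *iNOS*-/- M1 highest and *iNOS*-/- unstimulated lowest. In WT cells Slc7a2 rose 4.78-fold and 3.54-fold at these probes (log2 2.26 ± 0.094 and 1.83 ± 0.087, SE), and in *iNOS*-/- cells 40.9-fold and 22.1-fold (log2 5.35 ± 0.094 and 4.46 ± 0.087). With neqc the *iNOS*-/- rises were smaller, log2 4.51 and 3.95, and still passed.

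*iNOS*-/- M1 cells held 4.78-fold and 3.44-fold more Slc7a2 signal than WT M1 cells (adjusted p = 0.000151 and 0.000198). Without stimulation the order was the other way, 1.79-fold and 1.81-fold lower in *iNOS*-/- (adjusted p = 0.00266 and 0.00196). The probe at 1277, which the array's design marks as specific to 1 isoform of several, was detected on 1 of 8 arrays, an *iNOS*-/- M1 array at 7.57. Its readings elsewhere were between 1 and 1.06, apart from the other *iNOS*-/- M1 array at 7.57, and it was not tested. The induced Slc7a2 signal was thus read at the probes at 2081 and 3034.

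Ass1, which joins citrulline with aspartate, read 830 and 831.2 in WT unstimulated, 1252 and 1337 in WT M1, 1507 and 1438 in *iNOS*-/- unstimulated, and 2747 and 2472 in *iNOS*-/- M1. The *iNOS*-/- groups lay above the WT groups at each state, and unstimulated *iNOS*-/- arrays already lay above the WT M1 arrays. Ass1 was 1.77-fold higher in *iNOS*-/- unstimulated cells (log2 0.83 ± 0.094, adjusted p = 0.00271) and 2.01-fold higher in *iNOS*-/- M1 cells (log2 1.01 ± 0.094, adjusted p = 0.000837).

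The rise of Ass1 with activation was 1.56-fold in WT (log2 0.64 ± 0.094) and 1.77-fold in *iNOS*-/- (log2 0.82 ± 0.094), and the difference between these responses did not pass the test (log2 0.18 ± 0.13, adjusted p = 0.316). Scaling mattered here. With quantile normalization the *iNOS*-/- rise was log2 0.26 and no longer passed (adjusted p = 0.0632), the difference between the M1 groups was 0.56, and the difference in response turned to -0.43 with an adjusted p of 0.0445.

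Asl, which splits argininosuccinate into arginine and fumarate, stayed within narrow limits. Its probe at 103 ranged from 40.4 to 64.1 and its probe at 109 from 63.6 to 87.8 over the 8 arrays. Differences between groups ran from -0.65 to 0.50 on the log2 scale over both probes and all 5 comparisons, and the largest in size, the difference in response at 103, had a standard error of 0.23 (adjusted p = 0.0774). The probes gave opposite signs for the *iNOS*-/- response (-0.14 and 0.12) and for *iNOS*-/- M1 against WT M1 (-0.34 and 0.07), none of which passed the test.

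Gch1, GTP cyclohydrolase, opens the synthesis of tetrahydrobiopterin and sets its rate. Its main probe, at 907, read 1309 and 1310 in WT unstimulated, 2376 and 2498 in WT M1, 1277 and 1274 in *iNOS*-/- unstimulated, and 7661 and 7967 in *iNOS*-/- M1. The probe at 2447 read 39.3 and 58.1, 68.6 and 66.1, 56.8 and 52.3, and 150.7 and 153.9 in the same order. Both probes were highest on the *iNOS*-/- M1 arrays, and unstimulated levels of the genotypes lay close together.

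At the probe at 907, Gch1 rose 1.86-fold with activation in WT (log2 0.90 ± 0.078) and 6.13-fold in *iNOS*-/- cells (log2 2.61 ± 0.078). *iNOS*-/- M1 exceeded WT M1 by 3.21-fold (log2 1.68 ± 0.078, adjusted p = 0.00018), whereas the unstimulated groups differed by a log2 of -0.038 ± 0.078 (adjusted p = 0.755). Under neqc and quantile normalization the M1 difference was smaller, log2 1.10 in both cases, and still passed. The probe at 2447 was also higher in *iNOS*-/- M1 than in WT M1, by 2.26-fold (adjusted p = 0.00551). It gave no call for the WT response (log2 0.50 ± 0.19, adjusted p = 0.105), and the unstimulated groups overlapped there.

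The cofactor and substrate genes can be set beside sequence upstream of their start sites. Gch1 and Ass1 are shown, the only genes among these for which such sequence was found. Each window holds the 250 bases before the RefSeq start site, on GRCm38.p6, and the capitals mark motif matches found on either strand. The motifs searched were the interferon-γ activated site TTCNNNGAA, the interferon regulatory factor core GAAANNGAA, the E-box CACGTG, the TATA sequence TATAAA and the NF-κB consensus, which occur in 7.02%, 7.13%, 6.02%, 12.4% and 7.25% of 32851 such windows. The Gch1 window held an NF-κB match in the last 10 bases before the start and a TATAAA match on the other strand at 188 to 183 bases before it. The Ass1 window held 1 match, an E-box at 36 to 31 bases before the start, and the Odc1 window, not shown, held none. No match overlapped another, and a match is a description of letters, not of a bound factor.
Gch1, chr14:47189414-47189663, minus strand: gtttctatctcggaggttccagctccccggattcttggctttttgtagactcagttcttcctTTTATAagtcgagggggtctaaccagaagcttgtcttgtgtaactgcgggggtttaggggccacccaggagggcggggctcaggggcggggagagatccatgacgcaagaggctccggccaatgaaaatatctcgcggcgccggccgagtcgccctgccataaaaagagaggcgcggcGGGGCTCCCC
Ass1, chr2:31470020-31470269, plus strand: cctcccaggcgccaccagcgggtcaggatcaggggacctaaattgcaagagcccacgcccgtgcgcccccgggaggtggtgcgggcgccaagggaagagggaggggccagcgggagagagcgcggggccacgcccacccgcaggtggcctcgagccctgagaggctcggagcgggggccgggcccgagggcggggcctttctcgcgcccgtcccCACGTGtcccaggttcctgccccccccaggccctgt

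The arginases went apart. Arg1, the cytosolic enzyme and a familiar marker of alternatively activated macrophages, was far lower in *iNOS*-/- cells than in WT cells at both states. Arg2, the mitochondrial enzyme, was higher in *iNOS*-/- M1 cells than in WT M1 cells and did not differ detectably between the unstimulated groups.

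Arg1 read 290.4 and 252.9 in WT unstimulated, 111.2 and 102.6 in WT M1, 25.4 and 18.1 in *iNOS*-/- unstimulated, and 34.6 and 30.6 in *iNOS*-/- M1. No *iNOS*-/- array reached the lowest WT array. Arg1 was 12.6-fold lower in *iNOS*-/- unstimulated cells (log2 -3.66 ± 0.19, adjusted p = 0.000235), which was the largest genotype difference among the tested probes here, and 3.28-fold lower in *iNOS*-/- M1 cells (log2 -1.71 ± 0.19, adjusted p = 0.00142). With neqc these differences were log2 -2.99 and -1.22 and still passed.

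Activation lowered Arg1 in WT cells by 2.54-fold (log2 -1.34 ± 0.19, adjusted p = 0.00513). In *iNOS*-/- cells the groups lay the other way, 1.52-fold higher with activation (log2 0.60 ± 0.19, adjusted p = 0.0453). That call was lost with a floor of 16, in the fit to the 4 arrays of the comparison and without any one of 7 of the 8 arrays, down to log2 0.35 without *iNOS*-/- unstimulated replicate 2. The difference in response itself was log2 1.94 ± 0.27 (adjusted p = 0.00393).

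Arg2 read 85.7 and 78.2 in WT unstimulated, 70.7 and 86.8 in WT M1, 93.3 and 96.4 in *iNOS*-/- unstimulated, and 195.6 and 221.9 in *iNOS*-/- M1. The WT groups overlapped, and the *iNOS*-/- M1 arrays lay above all others. Arg2 rose 2.2-fold with activation in *iNOS*-/- cells (log2 1.13 ± 0.14, adjusted p = 0.00161), against a log2 change of -0.06 ± 0.14 in WT cells (adjusted p = 0.752). It was 2.66-fold higher in *iNOS*-/- M1 than in WT M1 (log2 1.41 ± 0.14, adjusted p = 0.000952).

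**Figure D2:**
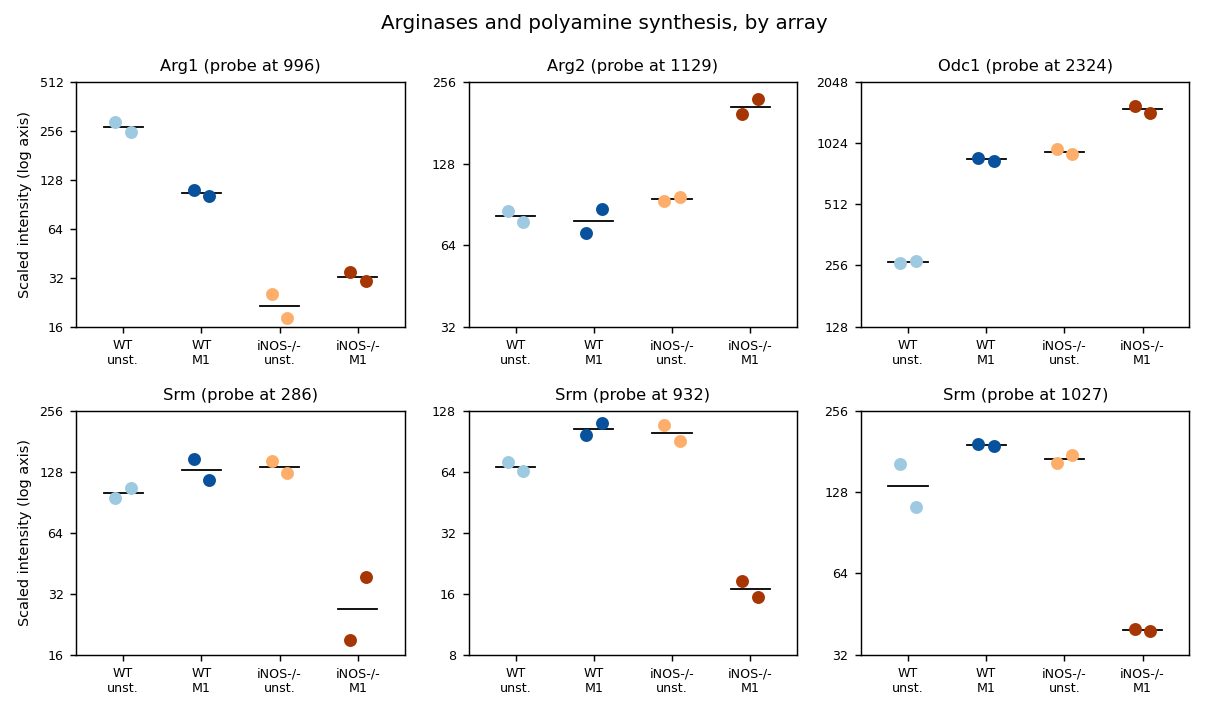
Scaled intensity (vertical log axis) on each of the 8 arrays for the arginases Arg1 and Arg2, for Odc1 and for the 3 Srm probes. Points are arrays, 2 per group, horizontal bars are geometric means and each panel has its own axis. Arg1 was at most 34.6 on *iNOS*-/- arrays and at least 102.6 on WT arrays, and every Srm probe was lowest in *iNOS*-/- M1.

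In polyamine synthesis the first and the next step moved in opposite ways between the M1 groups. Odc1, ornithine decarboxylase, was higher in *iNOS*-/- M1 than in WT M1, and Srm, spermidine synthase, was lower at all 3 of its probes.

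Odc1 read 262.6 and 268.6 in WT unstimulated, 863.3 and 842.7 in WT M1, 956.5 and 911.1 in *iNOS*-/- unstimulated, and 1563 and 1451 in *iNOS*-/- M1. Unstimulated *iNOS*-/- arrays lay slightly above the WT M1 arrays. Odc1 was 3.52-fold higher in *iNOS*-/- unstimulated cells (log2 1.81 ± 0.084, adjusted p = 0.000179) and 1.77-fold higher in *iNOS*-/- M1 cells (log2 0.82 ± 0.084, adjusted p = 0.00114).

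Odc1 rose 3.21-fold with activation in WT (log2 1.68 ± 0.084) and 1.61-fold in *iNOS*-/- cells (log2 0.69 ± 0.084), and the responses differed by log2 -0.99 ± 0.12 (adjusted p = 0.0026). The *iNOS*-/- rise depended on the scaling, at log2 0.21 under both neqc and quantile normalization, where it did not pass (adjusted p = 0.0791 and 0.0846). The M1 difference was then 0.46 and 0.47 and still passed.

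Srm at 286 read 95.2 and 105.7 in WT unstimulated, 148.2 and 116 in WT M1, 144.3 and 126.4 in *iNOS*-/- unstimulated, and 18.9 and 38.7 in *iNOS*-/- M1. At 932 the readings were 71.1 and 64.6, 97 and 111.4, 108.4 and 90.5, and 18.4 and 15.5, and at 1027 they were 161.8 and 112.6, 192.2 and 189.6, 163.2 and 175.6, and 39.8 and 39.2, in the same order. All 3 probes were detected on every array and set *iNOS*-/- M1 below the other groups without overlap.

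Srm fell with activation in *iNOS*-/- cells by 5-fold, 5.86-fold and 4.29-fold at the probes at 286, 932 and 1027 (adjusted p = 0.00369, 0.000164 and 0.000497). In *iNOS*-/- M1 it was 4.85-fold, 6.15-fold and 4.83-fold lower than in WT M1 (adjusted p = 0.00447, 0.000269 and 0.000542). With neqc the M1 differences were log2 -1.66, -1.77 and -1.80 and the *iNOS*-/- responses -1.75, -1.77 and -1.69, all smaller and still past the test. In WT cells the 3 probes gave log2 responses of 0.39 ± 0.35, 0.62 ± 0.15 and 0.50 ± 0.18, of which only that at 932 passed (adjusted p = 0.0298). The call at 932, and that for the unstimulated groups at the same probe (log2 0.55 ± 0.15, adjusted p = 0.0456), were both lost under quantile normalization (log2 0.46 in each case) and whenever an array of the groups compared was left out.

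The summed level of 7 dividing-cell markers was, like Srm, lower in *iNOS*-/- M1 than in *iNOS*-/- unstimulated and WT M1. The sum lay between 511.6 and 578 in WT unstimulated, 1659 and 1791 in WT M1, 1909 and 1928 in *iNOS*-/- unstimulated, and 669.8 and 676 in *iNOS*-/- M1. Top2a, Cdc2a, Birc5 and Plk1 were, like the sum, lowest in WT unstimulated, and Ccnb1 was, like Srm, lowest in *iNOS*-/- M1 (87.5 and 86.4). Bub1 was undetected in all 4 groups, and Ccna2 in WT unstimulated and *iNOS*-/- M1. The part of cell division in the Srm levels was not tested.

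Counted over the 14 tested probes, the WT response to activation was called for 8 (7 higher, 1 lower), against 35.1% of all 13868 tested probes. The *iNOS*-/- response was called for 12 (9 higher, 3 lower), against 50.3%. Between the M1 groups 11 were called (7 higher and 4 lower in *iNOS*-/-), against 48.2%. Between the unstimulated groups 7 were called (4 higher, 3 lower), against 32.2%, and 1 of these was Nos2, undetected there. The difference in response was called for 10 (6 higher, 4 lower), against 42%. Several genes are counted by more than 1 probe, and the comparisons share arrays, so these counts are not separate pieces of evidence. The median log2 difference of the 14 probes was 0.56 for the WT response, 0.76 for the *iNOS*-/- response, 0.57 between the M1 groups and 0.26 between the unstimulated groups, beside 0.089, 0.0039, -0.032 and 0 over all tested probes.

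**Figure D3:**
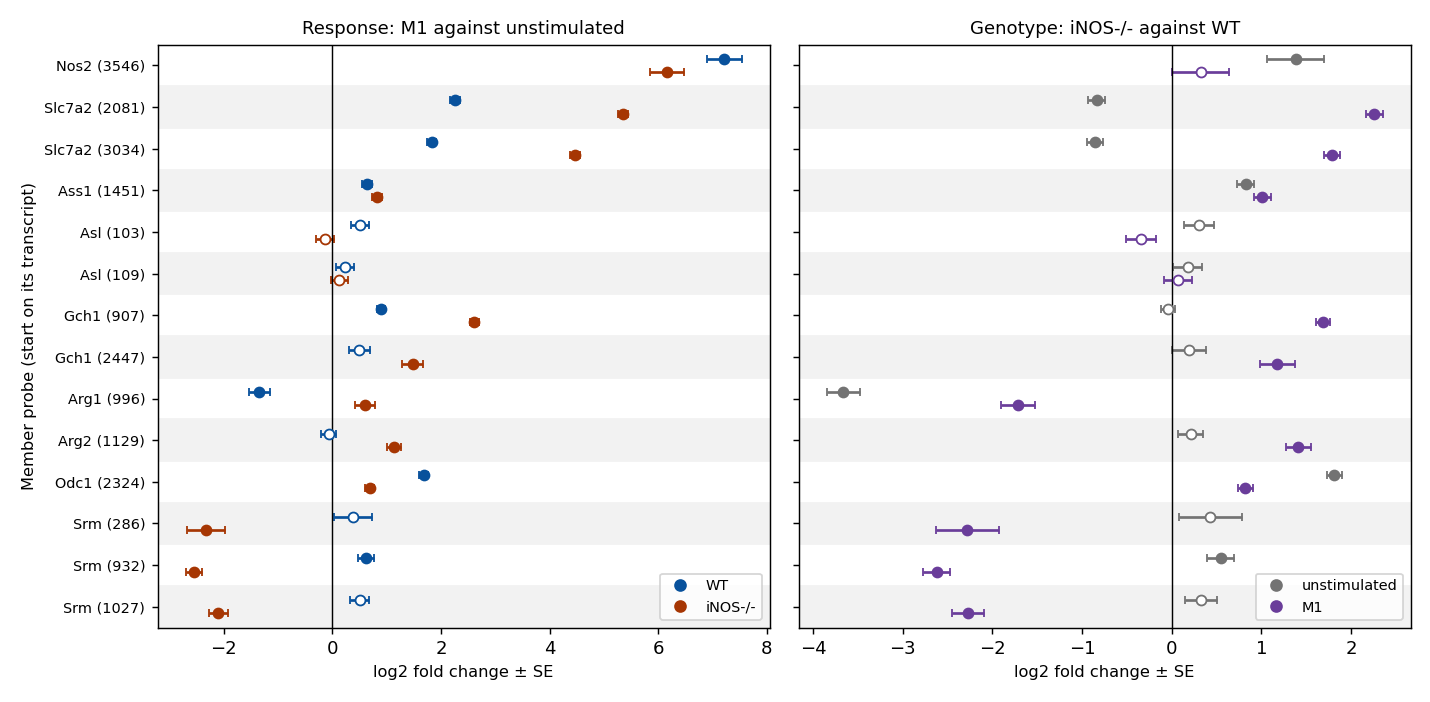
Log2 fold changes (horizontal axis) of the 14 tested probes with standard errors as bars, by response on the left and by genotype on the right. Filled points passed an adjusted p of 0.05 and open points did not. The Slc7a2 and Gch1 responses lie further right in *iNOS*-/- than in WT, the *iNOS*-/- Srm responses lie between -2.55 and -2.10, and the filled Nos2 point for the unstimulated groups comes from undetected readings.

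Set beside Nos2, whose M1 level did not differ detectably between the genotypes, the other genes of the pathway fell into 3 groups when *iNOS*-/- M1 was set against WT M1. The carrier Slc7a2, the recycling enzyme Ass1, the cofactor enzyme Gch1, the arginase Arg2 and Odc1 were higher, by between 1.77-fold for Odc1 and 4.78-fold for Slc7a2. Arg1 and Srm were lower, by between 3.28-fold for Arg1 and 6.15-fold for Srm at 932. Asl passed in neither direction. Levels of different probes are not comparable, so these are differences within a probe.

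Further genes of the same pathways were counted from 6 lists, covering synthases and their regulators, tetrahydrobiopterin, transport, the urea cycle, ornithine and proline, and polyamines. Of 45 listed genes, 29 were tested, by the brightest probe of each. With activation 6 rose and 5 fell in WT cells, and 5 rose and 12 fell in *iNOS*-/- cells. In *iNOS*-/- M1 against WT M1, 3 were higher and 13 lower, and between the unstimulated groups 7 were higher and 3 lower in *iNOS*-/-. The median log2 difference between the M1 groups was -0.45, beside -0.032 over all probes. The difference in response was called for 14 of the 29, 4 higher and 10 lower. The shares called, 37.9% and 58.6% for the WT and *iNOS*-/- responses, 55.2% and 34.5% between the M1 and the unstimulated groups and 48.3% for the difference in response, lay near those over all probes (35.1%, 50.3%, 48.2%, 32.2% and 42%), and nothing is read from them. With neqc the counts were 6 higher and 14 lower between the M1 groups and 7 higher and 7 lower between the unstimulated groups. Over all 13868 tested probes the calls rose as well, from 6687 to 7592 and from 4459 to 5675, and nothing is read from these counts.

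In the tetrahydrobiopterin list the enzymes that act after Gch1 were lower in *iNOS*-/- M1 than in WT M1. Pts, which carries out the step after Gch1, read 414 and 401.1 in WT unstimulated, 473.5 and 440.6 in WT M1, 853.5 and 860.6 in *iNOS*-/- unstimulated, and 308.1 and 289 in *iNOS*-/- M1. Spr, sepiapterin reductase, which completes the cofactor, read 58.5 and 63.5, 110 and 110.2, 95.5 and 121.8, and 47.1 and 44.6 in the same order. Both were lowest in *iNOS*-/- M1. In WT cells Spr rose with activation (log2 0.85 ± 0.14), as Gch1 did at 907, and Pts gave 0.16 ± 0.086 without passing, whereas in *iNOS*-/- cells activation lowered them by log2 -1.52 ± 0.086 and -1.24 ± 0.14. They were lower in *iNOS*-/- M1 than in WT M1 (log2 -0.61 ± 0.086 and -1.26 ± 0.14) and higher in *iNOS*-/- unstimulated than in WT unstimulated (1.07 ± 0.086 and 0.82 ± 0.14). Qdpr, which regenerates the cofactor, was lower in *iNOS*-/- at both states (log2 -0.38 ± 0.10 and -0.44 ± 0.10, unstimulated and M1).

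Among carriers, Slc3a2, the heavy chain that brings several amino acid carriers to the cell surface, read 265.6 and 269.1 in *iNOS*-/- M1 and between 73 and 99.7 on the other 6 arrays. It was higher than in WT M1 by log2 1.59 ± 0.16. Slc7a7, a light chain that pairs with it and carries cationic amino acids, was lower in *iNOS*-/- M1 than in WT M1 (log2 -0.70 ± 0.12), after readings of 72.9 and 87.3 against 124.6 and 135.8. Slc25a15, which carries ornithine into mitochondria, read 13.9 and 8.41 in *iNOS*-/- M1 against 39.2 and 41.8 in WT M1 (log2 -1.90 ± 0.24). The reading of 8.41 lay near the lowest detected intensity of its array, 7.57, so the size of this difference is uncertain.

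Among enzymes between ornithine, glutamate and proline, Aldh18a1, which makes the proline and ornithine precursor from glutamate, read 26.7 and 24.1 in WT unstimulated, 128.2 and 117.4 in WT M1, 120.8 and 110.3 in *iNOS*-/- unstimulated, and 67.8 and 78 in *iNOS*-/- M1. It rose in WT (log2 2.27 ± 0.12), fell in *iNOS*-/- cells (log2 -0.67 ± 0.12) and was lower in *iNOS*-/- M1 than in WT M1 (log2 -0.75 ± 0.12). Pycrl, which completes proline, was lower in *iNOS*-/- M1 (log2 -0.64 ± 0.17), although this call was lost under quantile normalization (log2 -0.51, adjusted p = 0.0618). Oat, ornithine aminotransferase, had readings between 1119 and 1568 on all 8 arrays and no call.

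In the polyamine list Paox, which oxidises acetylated polyamines, read 648.7 and 598.8 in WT unstimulated, 385.4 and 392.7 in WT M1, 426.6 and 412.2 in *iNOS*-/- unstimulated, and 59.5 and 72.8 in *iNOS*-/- M1. It was lower in *iNOS*-/- M1 than in WT M1 by log2 -2.56 ± 0.12. Smox, spermine oxidase, was higher there (log2 0.68 ± 0.12), and Mtap, which salvages the by-product of spermidine synthesis, was lower (log2 -1.38 ± 0.16). Oaz2, an antizyme that directs ornithine decarboxylase to degradation, was lower in *iNOS*-/- unstimulated than in WT unstimulated (log2 -0.78 ± 0.14) and gave -0.02 ± 0.14 between the M1 groups.

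Eif5a, the protein that receives a modification made from spermidine, rose in WT cells (log2 0.72 ± 0.090). Its *iNOS*-/- response of 0.43 ± 0.090 turned to -0.10 under neqc and quantile normalization. Dhps, which makes that modification, rose in *iNOS*-/- cells (log2 0.92 ± 0.17). In the list of synthases and regulators, Nosip rose in WT cells (log2 0.67 ± 0.19, not passing under quantile normalization) and Nostrin fell (log2 -0.58 ± 0.15).

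Some calls in these lists rest on readings near background. Nos3 was undetected in both *iNOS*-/- groups and read 7.87 and 8.85 in WT M1, Ddah2 was undetected in both WT groups and read 8.23 and 8.89 in *iNOS*-/- M1, Sat2 was undetected in *iNOS*-/- M1 and read 10.4 and 7.55 in WT M1, and Prodh was undetected in *iNOS*-/- M1 and read 8.1 and 11.1 in WT M1. No fold was taken from them. Of the 8 listed urea cycle genes 3 were tested, and none was called in any of the 5 comparisons, although with neqc 2 of them were called between the M1 groups (Nags at log2 -0.67 and Gatm at 0.50), 2 between the unstimulated groups, and 1 each for the *iNOS*-/- response and the difference in response.

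**Figure D4:**
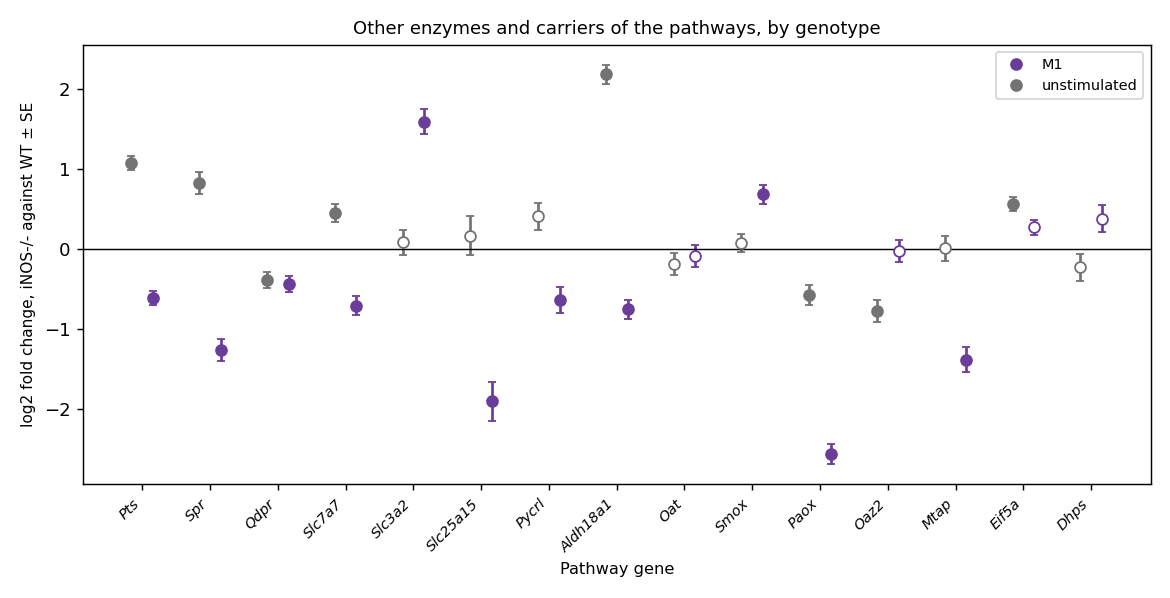
Log2 fold changes of *iNOS*-/- against WT (vertical axis) with standard errors as bars for 15 tested genes of the pathway lists, in M1 cells and in unstimulated cells. Filled points passed an adjusted p of 0.05 and open points did not. Slc3a2 and Smox lie above 0 in M1 cells, and Pts, Spr, Qdpr, Slc7a7, Slc25a15, Pycrl, Aldh18a1, Paox and Mtap lie below it.

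The genes whose pattern over the 8 arrays lay closest to that of Nos2, by Pearson's r among 1791 probes that ranged by at least 2 on the log2 scale, were Cxcl9 (r = 0.998), Edn1 (r = 0.998) and Cxcl1 (r = 0.996). For these correlations and that range, values under 16 were set to 16, so the unstimulated Nos2 readings were all equal. Cxcl9, a chemokine that attracts activated T cells, read 10590 and 11000 in WT M1 and 21420 and 22850 in *iNOS*-/- M1, with at most 17.4 without stimulation. For Arg1 they were Rbp4 (r = 0.992), Ncoa4 (r = 0.989) and Ctsa (r = 0.985), of which Ctsa, a lysosomal carboxypeptidase, read 1011 and 1058 in WT unstimulated, 566.1 and 566.5 in WT M1, 204 and 218 in *iNOS*-/- unstimulated, and 222.7 and 226.4 in *iNOS*-/- M1. The arrays fall into 4 groups, so these values describe the order of the groups and carry no test.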

How the data were processed

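RNA of macrophages was hybridised to 8 Illumina bead arrays. The array is MouseRef-8 in the labels but MouseWG-8 in the methods. The authors deposited non-normalized probe intensity values with a detection p-value beside each. Per the labels' processing notes, they used GenomeStudio and limma 3.14.4. The number of arrays limits the precision. Their methods name a rank-invariant normalization, whose details were chosen here, and no further background was subtracted. Every array was multiplied by a factor that set it to the mean array over rank-invariant probes (rank shift under 0.05, ranks between 0.5 and 0.9) from a robust line (MASS 7.3.60.0.1), values under 1 were set to 1, and log2 was taken. Probes detected (p-value under 0.05) on at least 2 arrays entered a one-way limma 3.58.1 model (R 4.3.3) on all 8 arrays. P-values of limma were adjusted over all 13868 tested probes (Benjamini-Hochberg), and calls needed an adjusted p-value under 0.05. The difference in response is the *iNOS*-/- response minus the WT response.

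A probe undetected in a group has only a bound there, set by the lowest detected intensity of each array. Members and lists were chosen with earlier results of these data known. All member probes are named, as are pathway genes called in a comparison, except for an item not reported here, and the 3 genes most like Nos2 and Arg1. Oat, Nags, Gatm and the marker genes were named after their values were seen. The alternatives were a floor of 16, neqc, quantile normalization, dropping the detection filter, detection on at least 4 arrays, a replicate block, an intensity trend, a 2-fold minimum, 4 arrays only and each replicate left out. The procedure was tested on simulated arrays in which few probes changed, as many up as down. That test does not cover changes as wide as those between the groups here. Promoter windows came from RefSeq, which matched 4 of the 10 genes.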

Additional observations from a re-analysis of the deposited data

Results flagged for a closer look

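The response to activation differed between the genotypes, by limma's test of that difference, at 10 of the 14 tested probes. These belong to 6 of the 9 tested genes, and 42% of all tested probes were called in the same comparison. The *iNOS*-/- response was the higher one at Slc7a2 (log2 difference 3.09 at 2081 and 2.64 at 3034), Arg1 (1.94), Gch1 (1.72 at 907 and 0.99 at 2447) and Arg2 (1.20). It was the lower one at Odc1 (-0.99) and at Srm (-2.71 at 286, -3.17 at 932 and -2.60 at 1027). For Arg1 the WT response was a fall, so the positive difference joins a fall in WT to a marginal rise in *iNOS*-/-. At the Gch1 probe at 2447 the call was lost without each of the WT M1, *iNOS*-/- unstimulated and *iNOS*-/- M1 arrays in turn, at log2 values between 0.91 and 1.04. At the Gch1 probe at 907 the difference was 1.03 with neqc and 1.04 with quantile normalization. The causes of these differences were not tested.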

How the results depend on the processing

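The number of member probes called stayed within 1.5 times in all 5 comparisons under every alternative run except the 2-fold minimum, which left 5 for the WT response and 3 between the unstimulated groups. The fit to 4 arrays does not apply to the difference in response. With the replicate number as a block (replicate block) the counts were 8, 12, 11, 6 and 9 in place of 8, 12, 11, 7 and 10, and same-numbered arrays did not deviate together (r from -0.0375 to 0.0247). Of 616 probe values recomputed with all replicates, 573 kept direction and call, 31 lost the call, 3 gained it and 9 changed sign or fell to 0. Sign changes with neqc and quantile normalization were Ass1 in the difference in response (-0.42 and -0.43), Gch1 at 907 between unstimulated groups (0.064 and 0.065) and Asl at 109 in the difference in response (0.13 and 0.15). The Nos2 difference in response was 0.22 with neqc and 0.32 with a floor of 16, and its unstimulated difference was 0 with that floor. Leaving out 1 replicate at a time, the ranges that crossed 0 were -0.21 to 0.091 for the Arg2 WT response, -0.34 to 0.034 for the Asl *iNOS*-/- response at 103, -0.14 to 0.27 for Asl at 109 between M1 groups, -0.12 to 0.45 for Gch1 at 2447 between unstimulated groups and -0.32 to 0.090 for Asl at 109 in the difference in response. The causes were not tested. Over all probes the 2-fold minimum left 2102, 3995, 3438, 1956 and 3845 calls of 4869, 6975, 6687, 4459 and 5829. Without WT unstimulated replicate 1 or 2 or WT M1 replicate 2, the WT response gave 3193, 3164 or 3238. The unstimulated comparison gave between 2778 and 2882 without an array of its own. Of the WT response calls 59.3% were higher, against 44.4% with neqc and 47.4% with quantile normalization, which moved the median over all probes from 0.089 to -0.035 and -0.062, and quantile normalization moved that of the *iNOS*-/- response from 0.0039 to -0.13. With 2 arrays per group, small changes of probes near background could not be resolved.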
